A study of Mus musculus with 6 samples.

Results

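The 10 genes described here encode the isoenzymes of 5 glycolytic enzymes: hexokinase (*Hk1*, *Hk2*), phosphofructokinase (*Pfkl*, *Pfkm*, *Pfkp*), aldolase (*Aldoa*, *Aldoc*), lactate dehydrogenase (*Ldha*, *Ldhb*) and pyruvate kinase (*Pkm*). They were found by gene symbol, and all 10 were among the 23420 genes of the table. RNA came from whole mouse lungs at stage E11.5dpc (*days post coitus*). The 3 Control pools were Raptorf/+; ShhCre/+ and the 3 Mutant pools were Raptorf/f; ShhCre/+, where Raptor is the symbol the labels use for *Rptor*, which encodes the RAPTOR subunit of mTORC1. Each pool joined 3 or 4 lungs of a single genotype, so a value is an average over embryos. All 6 pools carried *ShhCre* and at least 1 floxed *Rptor* allele, and the Control lungs therefore also lost 1 allele wherever the recombinase acted. *ShhCre* is active in the lung epithelium and not in the mesenchyme, the vessels or the blood, and these cells kept *Rptor* in both groups.

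Glycolysis turns glucose into pyruvate in the cytosol and yields ATP without oxygen. Most of its steps can be run by several paralogous enzymes that differ in tissue, kinetics and regulation. Hexokinase traps glucose as glucose 6-phosphate, phosphofructokinase commits the sugar to the pathway, aldolase splits it into 3-carbon units, pyruvate kinase makes ATP and pyruvate, and lactate dehydrogenase interconverts pyruvate and lactate. mTORC1 is known to promote glycolytic gene expression, in part through the hypoxia-inducible factor HIF1, and embryonic tissues are known for a high glycolytic rate.

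The deposited values were normalized counts, in which the reads of a gene are scaled by the size factor of their library, and these summed to between 20705058 and 20865998 per library. *Rptor* was listed at 2126, 2193 and 2279 in Control pools 1 to 3 and at 2023, 2137 and 2148 in Mutant pools 1 to 3. These groups overlapped (log2 fold change -0.06, SE 0.05, limma adjusted p = 0.584), in RNA of the whole lung in which only the epithelium lost the gene. The limma test described below called 54 of all 17168 tested genes lower and 32 higher in Mutant pools. Of 20 epithelial markers, none was at 0 in all pools, 19 were lower in Mutant pools and 7 of these passed the test, and their summed level was 16682 to 20335 in Control and 12866 to 14114 in Mutant pools. All 10 mesenchymal markers were higher, 3 of them past the test, with sums of 108358 to 114970 and 130851 to 138010. Fewer cells of a type and less RNA per cell cannot be told apart in such samples, and the part of this shift in the values given here was not tested.

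With limma over all genes, 0 of the 10 genes passed the test, while 5 were lower in every Mutant pool than in every Control pool: *Hk2*, *Pfkl*, *Aldoa*, *Ldha* and *Pkm*. The test was limma on log2(normalized count + 1), with p-values adjusted after Benjamini and Hochberg and called under 0.05, and it called 0.501% of 17168 tested genes in either direction. The same 5 genes had an unadjusted p under 0.05, in the lower direction, where 6.89% of all tested genes had one (6.67% in the higher direction, in which 0 of the 10 genes had one). Every Mutant pool lay below every Control pool in 10.5% of all tested genes and above in 9.77%, and 0 of the 10 genes lay above. The median log2 fold change of the 10 genes was -0.12, beside -0.00 for all tested genes. In each enzyme with more than 1 of these genes, the member lower in every Mutant pool was the one with the larger normalized count, and its partners *Hk1*, *Pfkm*, *Pfkp*, *Aldoc* and *Ldhb* overlapped between the groups.

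**Figure D1:**
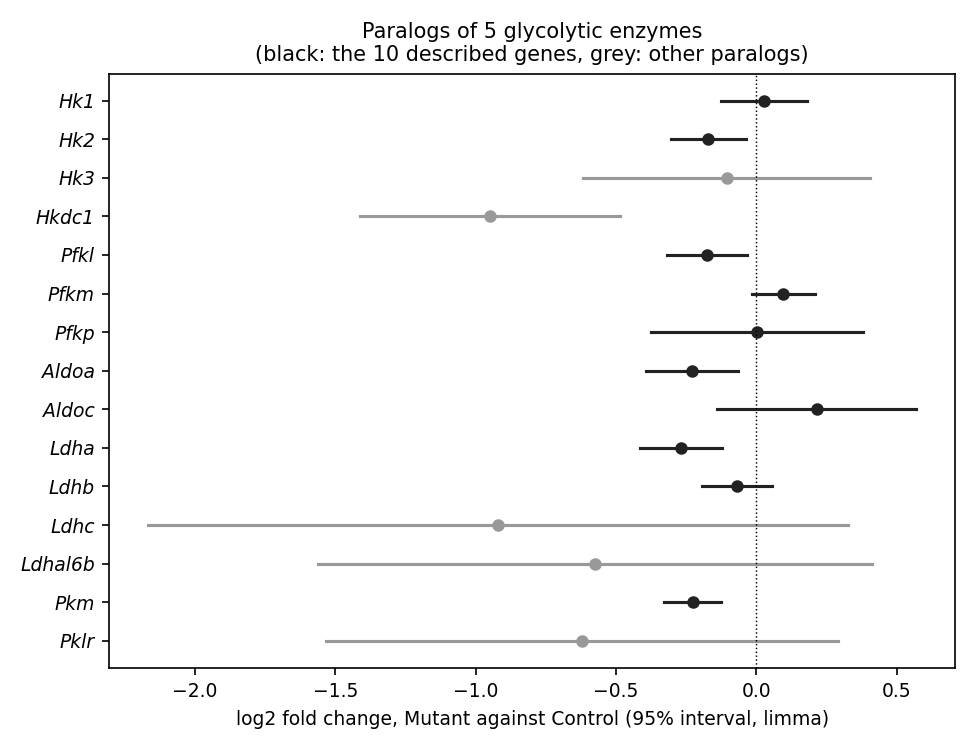
The log2 fold change of Mutant against Control pools (horizontal axis) is shown for the 10 genes and 5 of their other paralogs, with bars for the 95% interval of limma, in black for the 10 genes and in grey for the others. The intervals of *Hk2*, *Pfkl*, *Aldoa*, *Ldha* and *Pkm* lie below 0, and those of the other 5 genes in black include 0.

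With edgeR on the reads recovered for 2 Control and 3 Mutant libraries, *Ldha* (log2 fold change -0.19, adjusted p = 0.0315) and *Pkm* (-0.20, adjusted p = 0.0272) passed the threshold, where edgeR called 2.32% of the tested genes in the lower direction. These calls rest on libraries without Control pool 3, and limma without that pool also called *Ldha* (-0.19, adjusted p = 0.0306) and *Pkm* (-0.20, adjusted p = 0.0177). Limma without that pool called 285 of 16993 tested genes in the lower and 183 in the higher direction. In the same limma fit, 5 of the 10 genes had an unadjusted p under 0.05 in the lower direction and 1, *Pfkm*, in the higher direction, beside 8.58% and 8.37% of all genes tested without that pool, and the median of the 10 genes was -0.11.

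Levels can be compared between genes only per length, and they were divided by the kilobases of exon of each gene. On this scale *Pkm* was the most abundant, at 8481 ± 300 (SD, n = 3) counts per kb in Control pools, followed by *Ldha* at 5045 ± 549 and *Aldoa* at 3821 ± 477. *Ldhb* (1718 ± 59.4), *Pfkl* (757 ± 61.1), *Pfkm* (401 ± 18.8) and *Hk2* (298 ± 24.4 counts per kb) came next. *Hk1* was at 125 ± 8.27, *Aldoc* at 29.9 ± 4.22 and *Pfkp* at 15.8 ± 3.34. No neighbours in this order overlapped within the Control pools or within the Mutant pools. Per kb of coding sequence, *Hk2* (646 ± 52.9) stood before *Pfkm* (537 ± 25.2) in Control pools and overlapped with it in Mutant pools, and *Aldoc* (89.6 ± 12.6) and *Pfkp* (80.3 ± 17.0) overlapped in both. The annotated exons of *Pfkp* span 13.4 kb, of which 2.63 kb is coding, so its level moved most with the choice of length.

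**Figure D2:**
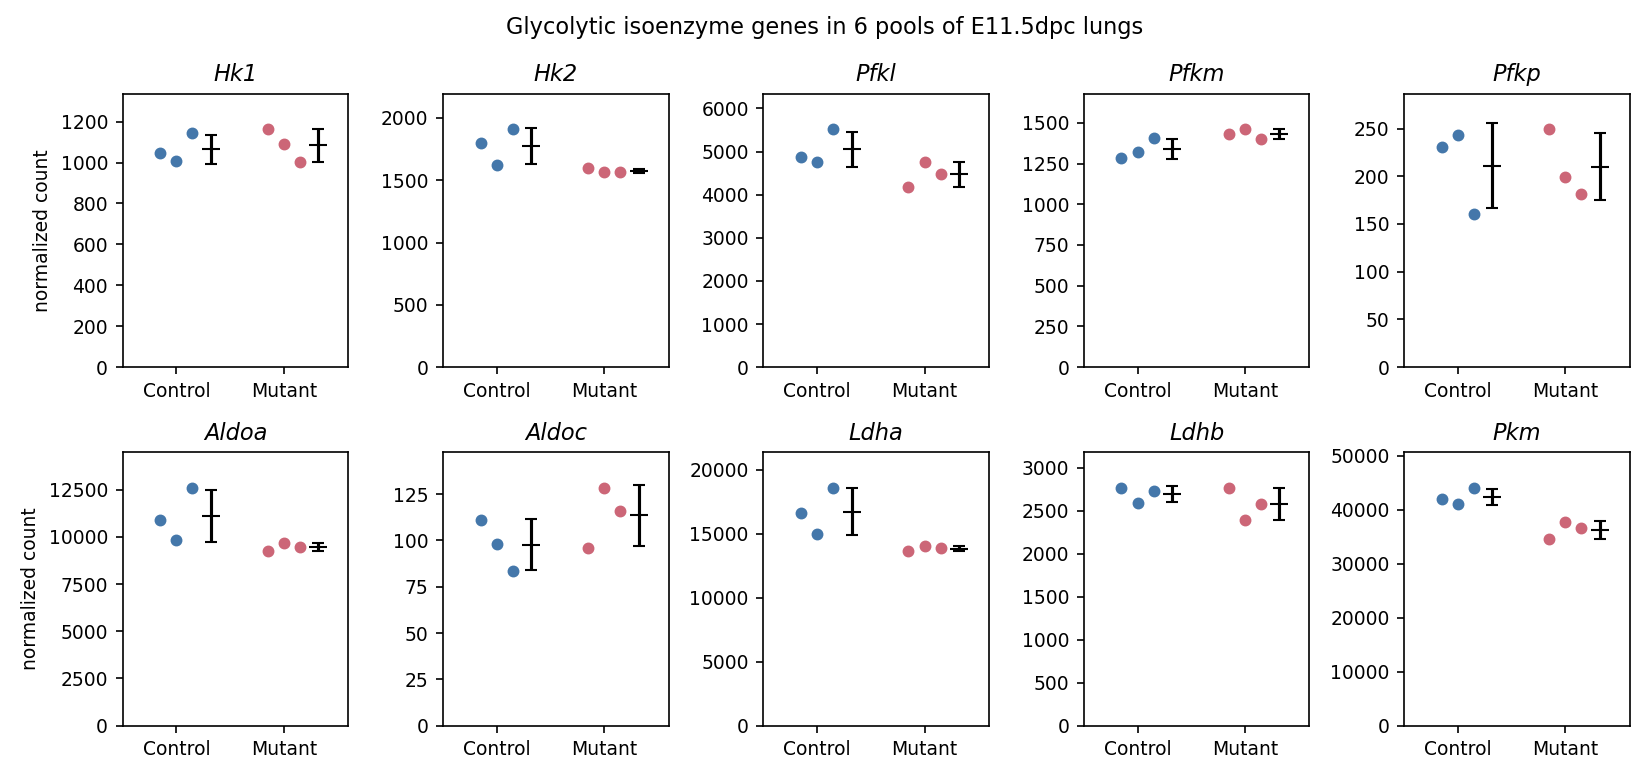
Normalized counts of the 10 genes (vertical axes, from 0, a separate scale for each gene) are plotted for the 3 Control pools in blue and the 3 Mutant pools in red, with the mean and SD in black. *Hk2*, *Pfkl*, *Aldoa*, *Ldha* and *Pkm* have no Mutant point as high as the lowest Control point.

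The core of the hypoxia response element, through which HIF1 acts, is written ACGTG or GCGTG, and MYC-type factors bind the E-box CACGTG, which contains ACGTG. These letters were searched on both strands in the 250 bases before each annotated start in RefSeq (build GRCm38.p6). Either core was present before at least 1 start of each of the 10 genes, against 41.5% of 27025 genes with such a window, and in 15 of the 19 windows of the 10 genes, some of which overlap, against 38.6% of all windows. An E-box was present before a start of *Ldha* and of *Pfkm*, against 6.86% of all genes. The E-box of *Pfkm* lay before another of its starts than the one shown. The window with the most matches among these 19, before a start of *Ldha*, the windows of *Hk2* and *Pfkl*, and 1 of the 4 windows of *Pfkm* are given here (the *Pfkl* to *Pfkm* ratio did not overlap between the groups), from 5′ to 3′ on the strand of the gene, with capitals for each match to ACGTG or GCGTG on either strand (CACGT and CACGC are the same letters read from the other strand).
*Ldha*, chr7:46845554-46845803, plus strand: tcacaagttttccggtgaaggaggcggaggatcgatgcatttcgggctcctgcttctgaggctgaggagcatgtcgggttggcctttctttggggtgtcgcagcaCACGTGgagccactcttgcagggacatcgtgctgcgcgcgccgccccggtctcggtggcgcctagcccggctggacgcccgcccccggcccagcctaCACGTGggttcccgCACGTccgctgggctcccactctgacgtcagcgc
*Hk2*, chr6:82774455-82774704, minus strand: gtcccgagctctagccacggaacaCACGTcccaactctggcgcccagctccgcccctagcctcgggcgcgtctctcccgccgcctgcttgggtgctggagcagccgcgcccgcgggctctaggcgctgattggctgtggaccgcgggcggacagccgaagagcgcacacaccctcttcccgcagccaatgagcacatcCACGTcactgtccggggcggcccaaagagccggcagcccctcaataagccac
*Pfkl*, chr10:78009808-78010057, minus strand: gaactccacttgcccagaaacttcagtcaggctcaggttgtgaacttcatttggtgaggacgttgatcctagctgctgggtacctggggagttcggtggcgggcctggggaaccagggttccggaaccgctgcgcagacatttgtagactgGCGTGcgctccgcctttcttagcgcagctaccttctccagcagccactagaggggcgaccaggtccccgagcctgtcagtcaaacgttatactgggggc
*Pfkm*, chr15:98108221-98108470, plus strand: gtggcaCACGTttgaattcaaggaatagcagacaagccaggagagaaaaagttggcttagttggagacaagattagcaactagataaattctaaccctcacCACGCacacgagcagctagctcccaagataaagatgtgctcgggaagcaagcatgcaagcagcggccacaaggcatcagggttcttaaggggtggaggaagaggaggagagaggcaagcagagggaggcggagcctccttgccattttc
The *Ldha* window held 5 matches, 4 of them from its 2 E-boxes read on both strands, and the *Hk2* window held 2. The bases that follow this start of *Ldha* were not found in a GENCODE M21 transcript of the gene. Those after the other annotated *Ldha* start were found, and its window held 1 match and no E-box. The *Pfkl* window held 1 match, and the window given for *Pfkm* held 2. A match is only a match of letters and was not tested for binding.

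Hexokinase 2 is the inducible form found in many growing tissues, and hexokinase 1 the widely expressed form. *Hk2* (chromosome 6 of GRCm38, 82725025 to 82774454) was at 1797, 1621 and 1909 normalized counts in Control pools 1 to 3 and at 1595, 1566 and 1564 in Mutant pools. The Mutant pools were all below the Control pools and spread much less (log2 fold change -0.17, SE 0.06, limma unadjusted p = 0.0174, adjusted p = 0.243). *Hk1* (chromosome 10, 62268855 to 62379908) was at 1044, 1005 and 1142 in Control and at 1163, 1088 and 1003 in Mutant pools. The *Hk1* groups overlapped across their whole range, with a log2 fold change of 0.03 (SE 0.07, limma 95% interval -0.13 to 0.18, adjusted p = 0.900).

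The ratio of *Hk1* to *Hk2* counts within a pool, which does not depend on the size factor, was 0.581, 0.620 and 0.598 in Control pools but 0.729, 0.695 and 0.642 in Mutant pools. Every Mutant pool was above every Control pool, by 0.20 on the log2 scale (SE 0.06, exact two-sided permutation p = 0.1, the smallest that 3 pools against 3 can give, adjusted p = 0.233 over 7 ratios). Among all hexokinase genes of the table, per kb of exon, the share of *Hk1* was 26.0%, 26.5% and 26.5% in Control and 31.2%, 29.7% and 28.2% in Mutant pools (exact permutation p = 0.1, adjusted p = 0.2 over 10 shares). The share of *Hk2* was 62.8% ± 1.49 in Control and 61.7% ± 1.03 in Mutant pools (SD, n = 3), and the groups overlapped (exact permutation p = 0.3).

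The minor hexokinase gene *Hkdc1* had a lower share in every Mutant pool, at 3.78% ± 0.808 in Control and 2.15% ± 0.489 in Mutant pools (SD, n = 3). *Hkdc1*, which encodes hexokinase domain-containing protein 1, was at 72.7, 105 and 96.4 normalized counts in Control and at 47.0, 37.3 and 56.9 in Mutant pools. Its log2 fold change was -0.95 (SE 0.21), with the lowest unadjusted p among the other glycolysis genes (limma adjusted p = 0.0908). With edgeR on the recovered reads it was called (edgeR adjusted p = 0.0452). *Hk3*, another minor hexokinase gene, overlapped (53.0 to 66.1 counts in Control against 37.8 to 67.7 in Mutant pools). With only *Hk1* and *Hk2* in the sum, the difference in the share of *Hk2* was -2.94 percentage points in place of -1.08. The summed counts of the hexokinase genes overlapped between groups (log2 difference -0.12, SE 0.06, exact permutation p = 0.2). Summed per kb of exon, the scale of the shares, they were lower in every Mutant pool (474 ± 30.5 in Control and 428 ± 10.4 in Mutant pools, log2 difference -0.15).

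**Figure D3:**
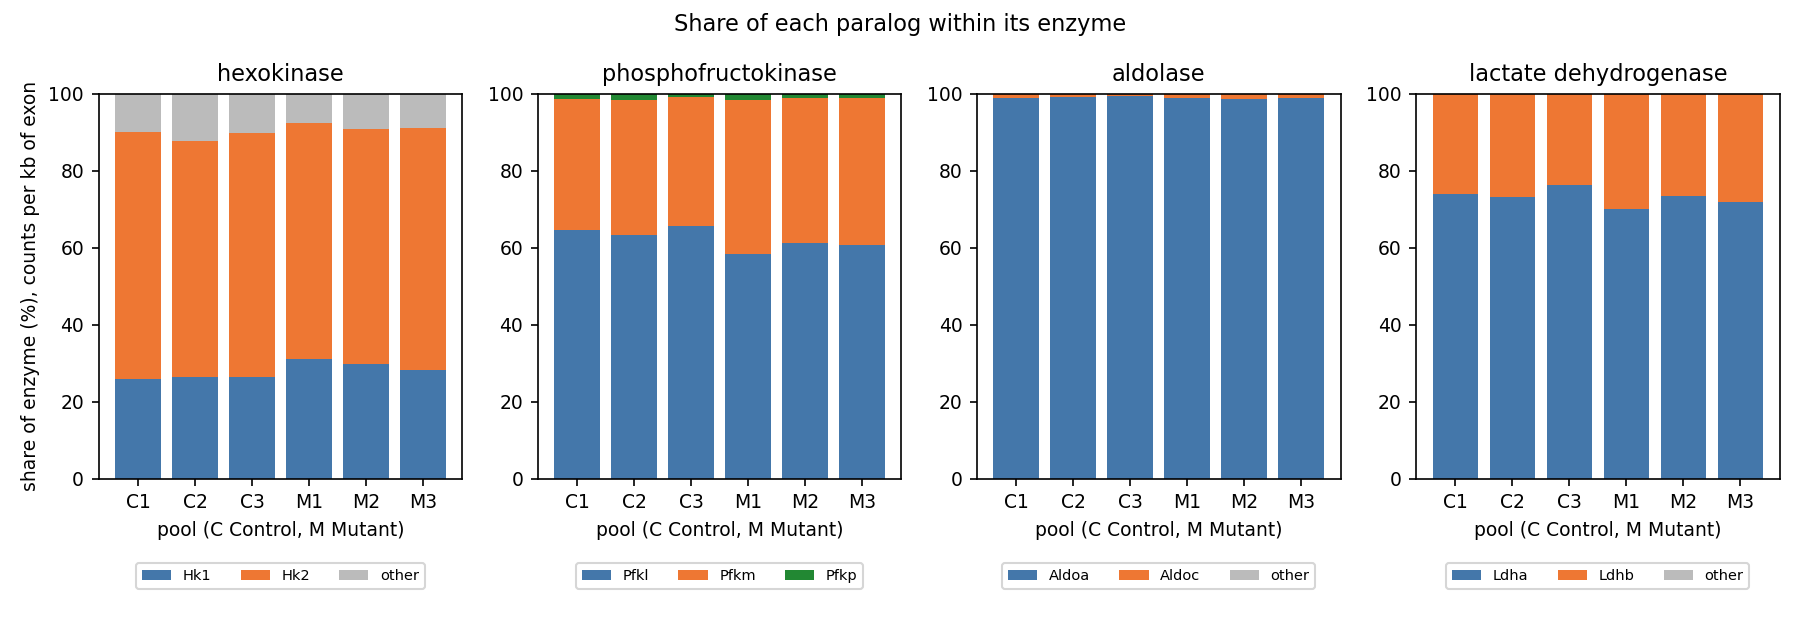
Stacked bars give the share of each of these genes, with their remaining paralogs joined as other (percent, from counts per kb of exon), within hexokinase, phosphofructokinase, aldolase and lactate dehydrogenase in Control (C1 to C3) and Mutant (M1 to M3) pools. The *Hk1* share lies between 26.0% and 26.5% in Control and above 28% in Mutant pools, and the *Pfkm* share between 33.5% and 35.1% in Control and above 37% in Mutant pools.

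Phosphofructokinase works as a tetramer of liver (*Pfkl*), muscle (*Pfkm*) and platelet (*Pfkp*) type subunits, and of the 7 ratios compared the one of *Pfkl* to *Pfkm* had the largest difference relative to its SE. *Pfkl* (chromosome 10, 77986947 to 78010083) was at 4868, 4769 and 5519 normalized counts in Control and at 4184, 4749 and 4479 in Mutant pools. Mutant pool 2 lay just below Control pool 2, so the separation rested on a small gap (log2 fold change -0.18, SE 0.06, limma unadjusted p = 0.0198, adjusted p = 0.254), and without Control pool 3 the log2 fold change was -0.11. *Pfkm* (chromosome 15, 98092589 to 98132451) was at 1286, 1323 and 1408 in Control and at 1428, 1461 and 1403 in Mutant pools. Only Control pool 3 reached into the range of the Mutant pools (log2 fold change 0.10, SE 0.05, limma 95% interval -0.02 to 0.21, adjusted p = 0.437). *Pfkp* (chromosome 13, 6579768 to 6648777) was at 231, 243 and 160 in Control and at 249, 199 and 182 in Mutant pools. Its log2 fold change was 0.00 (SE 0.17), and it had the widest relative spread in Control pools of the 10 genes.

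Within each pool, *Pfkl* counts were 3.79, 3.60 and 3.92 times those of *Pfkm* in Control and 2.93, 3.25 and 3.19 times in Mutant pools. The groups did not overlap, with a difference of -0.27 on the log2 scale (SE 0.06, exact permutation p = 0.1, adjusted p = 0.233 over 7 ratios). Per kb of exon, *Pfkl* made up 64.5%, 63.3% and 65.6% of phosphofructokinase in Control and 58.4%, 61.1% and 60.8% in Mutant pools, and *Pfkm* made up 34.0%, 35.1% and 33.5% against 39.9%, 37.6% and 38.0%. Both shares were separated between the groups (exact permutation p = 0.1, adjusted p = 0.2), and they are nearly mirror values because *Pfkp* held only 0.947% to 1.73%. Per kb of coding sequence the share of *Pfkl* was 77.7% ± 1.24 in Control and 74.5% ± 1.44 in Mutant pools, still without overlap. The ratios of *Pfkl* and *Pfkm* to *Pfkp* overlapped (log2 differences -0.18, SE 0.31, and 0.09, SE 0.26), as did the summed counts of the 3 genes, with a log2 difference of -0.11 (SE 0.06, exact permutation p = 0.3).

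**Figure D4:**
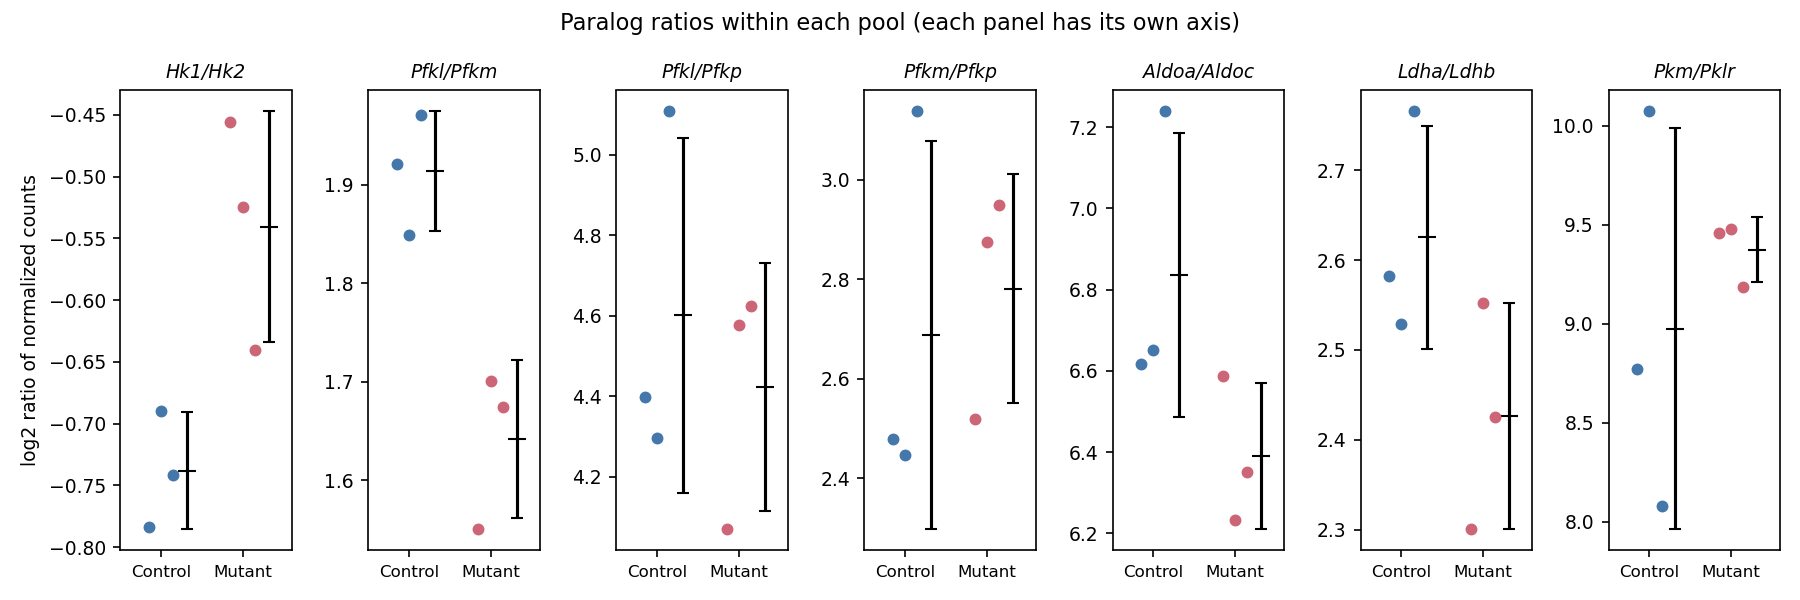
Log2 ratios of normalized counts of 2 paralogs within each pool (vertical axes, a separate scale for each ratio) are plotted for 3 Control pools in blue and 3 Mutant pools in red, with the mean and SD in black. The groups do not overlap for *Hk1*/*Hk2*, *Pfkl*/*Pfkm* and *Aldoa*/*Aldoc*, and they overlap for the other 4 ratios.

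Aldolase A is the form of muscle and of most embryonic tissues, and aldolase C that of brain. *Aldoa* (chromosome 7, 126795234 to 126800751) was at 10900, 9858 and 12608 normalized counts in Control and at 9237, 9662 and 9450 in Mutant pools. The lowest Control pool was close to the highest Mutant pool, and the Control pools were spread over 0.36 on the log2 scale against 0.07 in Mutant pools. The log2 fold change was -0.23 (SE 0.07, limma unadjusted p = 0.0112, adjusted p = 0.206), and it was -0.31 with an adjusted p of 0.0452 without Control pool 2 and -0.13 without Control pool 3. With any pool but Control pool 2 left out, the limma adjusted p was between 0.122 and 0.504, and *Aldoa* did not pass. *Aldoc* (chromosome 11, 78322968 to 78327781) was at 111, 98.1 and 83.5 in Control and at 96.0, 128 and 116 in Mutant pools, which overlapped (log2 fold change 0.22, SE 0.16, limma adjusted p = 0.599).

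*Aldoa* made up 99.07% ± 0.138 of aldolase per kb of exon in Control and 98.79% ± 0.163 in Mutant pools (SD, n = 3). *Aldoc* held 0.899%, 0.879% and 0.586% in Control and 0.918%, 1.17% and 1.08% in Mutant pools, with no overlap (exact permutation p = 0.1, adjusted p = 0.2). Its ratio to *Aldoa* also did not overlap, but *Aldoa* counts were 98.2 times those of *Aldoc* in Control pool 1 and 96.2 times in Mutant pool 1, a gap far smaller than the spread within either group. The summed counts of aldolase were lower in every Mutant pool (log2 difference -0.22, SE 0.10, exact permutation p = 0.1, adjusted p = 0.167 over 5 enzymes). Without Control pool 3 the log2 difference was -0.13, that of the *Aldoa* to *Aldoc* ratio moved from -0.45 to -0.24, and that of the *Aldoc* share moved from 0.268 to 0.167 percentage points.

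Lactate dehydrogenase is a tetramer of A subunits, which predominate in glycolytic tissue, and B subunits, which predominate in heart and other oxidative tissue. *Ldha* (chromosome 7, 46841475 to 46855627) was at 16568, 14951 and 18580 normalized counts in Control and at 13602, 14020 and 13837 in Mutant pools. The 3 Mutant pools were nearly level, with a coefficient of variation of 1.52% against 10.9% in Control pools, and all were below the lowest Control pool. The log2 fold change was -0.27 (SE 0.07, limma unadjusted p = 0.00231, adjusted p = 0.124), a ratio of mean levels of 0.828. It passed the threshold without Control pool 2 (-0.34, adjusted p = 0.0253) and without Control pool 3 (-0.19, adjusted p = 0.0306). It did not pass without Control pool 1 (limma adjusted p = 0.341) or without Mutant pool 1, 2 or 3 (limma adjusted p = 0.329, 0.313 and 0.421). *Ldhb* (chromosome 6, 142490249 to 142507957) was at 2767, 2591 and 2732 in Control and at 2760, 2389 and 2577 in Mutant pools, which overlapped (log2 fold change -0.07, SE 0.06, limma adjusted p = 0.646).

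The share of *Ldha* within lactate dehydrogenase was 73.9%, 73.1% and 76.2% per kb of exon in Control and 70.0%, 73.4% and 71.7% in Mutant pools. Mutant pool 2 lay between Control pools 2 and 1, so neither the share (exact permutation p = 0.2) nor the *Ldha* to *Ldhb* ratio (5.99, 5.77 and 6.80 in Control, 4.93, 5.87 and 5.37 in Mutant pools, exact permutation p = 0.2) was separated. Per kb of coding sequence the share of *Ldha* was 85.0% ± 1.08 in Control and 83.2% ± 1.20 in Mutant pools, also overlapping. The summed counts were 19344, 17564 and 21332 in Control and 16369, 16424 and 16421 in Mutant pools (log2 difference -0.24, SE 0.08, exact permutation p = 0.1). The testis paralog *Ldhc* was listed at 2.07 or less in every pool, and *Ldhal6b* at 6.13 to 19.6. The *Ldha* transcript matched 5 annotated pseudogenes over 55.0% of its length at 95% identity or more, and *Ldhb* matched 1 over 76.8%. None of these copies had a row in the table, and reads that fit a gene and a copy equally may have been lost or split in counting.

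*Pkm* encodes both muscle-type pyruvate kinases, PKM1 and the PKM2 form of growing tissue, by alternative splicing, and counts per gene do not tell the splice forms apart. *Pkm* (chromosome 9, 59656368 to 59679375) was at 42041, 41130 and 44061 normalized counts in Control and at 34470, 37771 and 36549 in Mutant pools. It had the lowest unadjusted p of the 10 genes, with a ratio of mean levels of 0.855, and a log2 fold change of -0.23 (SE 0.05, limma, 95% interval -0.33 to -0.12, unadjusted p = 0.000584, adjusted p = 0.0710). Without Control pool 3 it was -0.20 with an adjusted p of 0.0177. With any other pool left out, the limma adjusted p was between 0.0520 and 0.350, and *Pkm* did not pass. *Pklr*, the liver and red cell form, was at 96.3, 38.2 and 163 in Control and at 49.0, 52.9 and 62.8 in Mutant pools. *Pkm* therefore made up 99.6% ± 0.213 of pyruvate kinase per kb of exon in Control and 99.8% ± 0.0273 in Mutant pools, and the groups overlapped (exact permutation p = 0.4). The *Pkm* transcript matched 2 other annotated genes, 1 of them a pseudogene and neither with a row in the table, over 65.5% of its length, while *Hk2*, *Pfkl*, *Pfkm*, *Aldoa* and *Aldoc* had no such match. *Hk1* matched 1 other gene over 3.67%, and *Pfkp* 1 other gene, which the table listed, over 18.0%.

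The pools of a group were not alike for these genes. Control pool 3 was the highest Control pool for 7 of the 10 genes and Control pool 2 the lowest for 7, and the highest value of all 6 pools was in Control pool 3 for *Hk2*, *Pfkl*, *Aldoa*, *Ldha* and *Pkm*. The exceptions were *Ldhb*, which was highest in Control pool 1, and *Pfkp* and *Aldoc*, which were lowest of all pools in Control pool 3, at -0.38 and -0.32 on the log2 scale from their means over the 6 pools. The epithelial marker sum was lowest of the Control pools in Control pool 3 (19086, 20335 and 16682 in pools 1 to 3), where most of the 10 genes were highest. The red cell sum, over 10 erythroid markers of which *Hba-a1* was at 0 in all pools and *Hbb-bt* was not listed, was highest in Control pool 3 and lowest in Control pool 2 (110459, 98684 and 128344 in pools 1 to 3), and its groups overlapped (122028, 98319 and 117546 in Mutant pools). The sum of 17 striated muscle markers was 2128, 1844 and 2194 in Control and 1867, 1594 and 1816 in Mutant pools, with *Ckm* between 0 and 2.94. Single markers of this list differed from each other in the order of the Control pools. The part of red cells and muscle in the spread of the 10 genes was not tested.

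**Figure D5:**
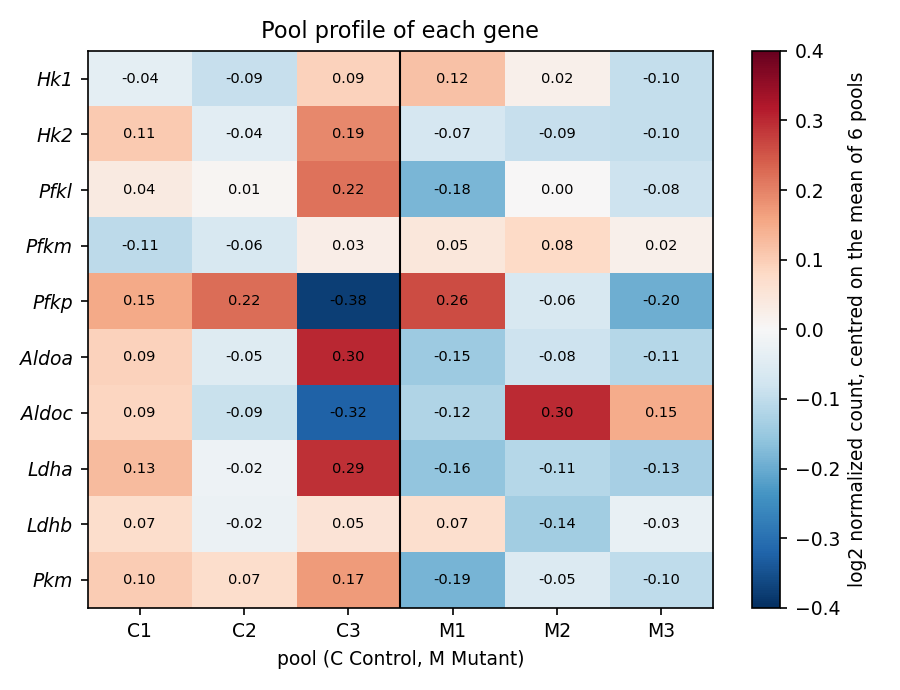
The log2 normalized count of each of the 10 genes, centred on its mean over the 6 pools, is coloured from -0.4 (blue) to 0.4 (red) and printed for Control (C1 to C3) and Mutant (M1 to M3) pools. *Hk2*, *Pfkl*, *Aldoa*, *Ldha* and *Pkm* are highest in C3, while *Pfkp* and *Aldoc* are lowest there.

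The genes most like *Ldha* over the 6 pools, by the root mean square (RMS) difference of centred log2 values among 11456 genes with a mean of at least 100, were *Dgke* (0.0228), *Aldoa* (0.0253) and *Zfyve27* (0.0289). *Hk2* ranked 45, *Pkm* 86 and *Pfkl* 91, whereas its own partner *Ldhb* ranked 2335 and *Hk1* 4425. *Dgke*, which encodes a diacylglycerol kinase, was at 304, 278 and 335 in Control and at 245, 263 and 249 in Mutant pools, and so had the profile of *Ldha* at a much lower level. For *Pfkm* the closest genes were *Ssbp3* (0.0127), *Pcmtd2* (0.0157) and *Mbtd1* (0.0161), and of the 10 genes the closest was *Hk1*, at rank 2057. A likeness over 6 values is only a description of these pools.

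Of 26 other glycolysis genes on a list, 24 were tested, 0 passed the limma threshold and 1, *Hkdc1*, passed with edgeR. Among the 24, 21 had a negative log2 fold change, with a median of -0.14, where 8673 of all 17168 tested genes were negative. At an unadjusted p under 0.05 in limma, 6 of the 24 were lower and 1, *Eno2*, was higher. Of all tested genes, 6.89% were lower and 6.67% higher at that threshold. The 21 include *Gapdh* and *Eno1*, and the 6 include *Gapdh*, genes for which no level was drawn from the counts. Beside *Hkdc1*, the 4 with the lowest unadjusted p were *Gapdh*, *Gpi1*, *Pgk1* and *Tpi1*. *Gpi1*, glucose 6-phosphate isomerase, was at 8471, 8547 and 9024 in Control and at 7857, 8045 and 7862 in Mutant pools (log2 fold change -0.13, SE 0.04, limma adjusted p = 0.176). *Pgk1*, phosphoglycerate kinase, was at 6730, 5987 and 7582 against 5906, 5600 and 5889 (-0.22, SE 0.07, limma adjusted p = 0.219), and *Tpi1*, triose phosphate isomerase, at 8836, 8174 and 9535 against 7909, 8147 and 7953 (-0.14, SE 0.05, limma adjusted p = 0.270). These 3, picked by their low p, were lower in every Mutant pool, and their transcripts matched 5, 4 and 1 other annotated genes. Among the 24 tested genes, 8 were lower in every Mutant pool and 1 was higher in every Mutant pool. The shares of all tested genes were 10.5% lower and 9.77% higher in every Mutant pool. *Gapdh* behaved otherwise, at 5277, 1599 and 1981 in Control and 142, 175 and 1873 in Mutant pools. Its transcript matched 81 other annotated genes at 95% identity or more, 77 of them pseudogenes, and the groups overlapped (log2 fold change -2.83, SE 0.82, limma adjusted p = 0.171).

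Genes that respond to hypoxia but lie outside glycolysis were spread around 0. Of 19 tested, 0 passed the threshold with limma or with edgeR, 1 had an unadjusted p under 0.05 in limma, 9 were positive and 10 negative, and the median log2 fold change was -0.02. The lowest unadjusted p belonged to *Ddit4*, an mTORC1 inhibitor, which was higher in every Mutant pool (1065, 1066 and 1060 against 1270, 1129 and 1295 counts, log2 fold change 0.21, SE 0.06, limma adjusted p = 0.164). *Slc2a1*, the glucose transporter upstream of hexokinase, was at 2749, 2920 and 3136 in Control and at 2715, 2776 and 2732 in Mutant pools, which overlapped (-0.10, SE 0.05, limma adjusted p = 0.438). Of 6 tested gluconeogenesis genes, which run the pathway in reverse, 0 passed the limma threshold, 1 had an unadjusted p under 0.05 and 3 were negative. *Pck2*, the mitochondrial phosphoenolpyruvate carboxykinase, was higher in every Mutant pool (1593, 1521 and 1399 against 1678, 1708 and 1740, log2 fold change 0.19, SE 0.05, limma adjusted p = 0.176), and *G6pc3* overlapped (-0.21, SE 0.10, limma adjusted p = 0.378) but was called lower by edgeR on 5 libraries (adjusted p = 0.0299).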

How the data were processed

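Total RNA of 6 pools of whole lungs at E11.5dpc was sequenced on the BGISEQ-500 platform. Per the labels, the submitters' processing notes name Trim Galore, HISAT2, featureCounts and DESeq2 and the build mm10, with no versions. The authors deposited normalized counts (reads per gene divided by a size factor, a signal scale), a mean over libraries, and their own log2 fold changes with standard errors, test scores and p-values, which were not used. In 5 libraries all values were whole multiples of 1 step, giving 20197642 to 21276090 reads. Those of Control pool 3 were also multiples of a step (0.994), but a step so near 1 did not meet the criterion used for recovered reads, and this library was left out of the count test.

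Normalized counts were compared with limma 3.58.1 in R 4.3.3 (lmFit, eBayes with trend) on log2(value + 1), which understates changes of low genes, for genes with at least 1 in at least 3 libraries. The alternative was edgeR 4.0.16 (quasi-likelihood, TMM, filterByExpr) on the recovered reads. Both were tested on simulated data. Shares, ratios and sums were compared with exact two-sided permutation tests. Coordinates and lengths are from GENCODE M21 (GRCm38), where *Aldoa* has 2 entries and the one overlapping RefSeq was used. Copies were sought with blastn 2.17.0+ over at least 100 bases. The labels do not say whether pools of a group came from separate litters, and p-values measure only the spread between pools. The 10 genes and all lists were chosen with earlier results of these data known. Named besides them were other paralogs (some are not reported here), the 5 other glycolysis genes and 2 hypoxia and 2 gluconeogenesis genes of lowest p, *Rptor*, and the 3 genes most like *Ldha* and *Pfkm*. *Eno1*, *Eno2*, *Hba-a1*, *Hbb-bt* and *Ckm* were named after their values were seen. Date-like symbols replaced 27 gene names.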

Additional observations from a re-analysis of the deposited data

How the results depend on the processing

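Of 130 alternative fold changes of the 10 genes, 119 kept their direction and side of the threshold. The 49 alternative values of the ratios and 40 of the sums stayed within the spread of the pools (pooled SD), while 3 of 90 shares moved by more. Leaving out 1 of 3 pools cannot move a difference beyond this spread, and the replicate block leaves the mean ratio difference unchanged. The outcome was therefore fixed in advance for all ratio values, and for the sums and shares with a pool left out. It is no measure of their stability. The sign changed in 4 of the 49 ratio values (*Pfkl* to *Pfkp* and *Pkm* to *Pklr* without Control pool 3, *Pfkm* to *Pfkp* without Control pool 1 or 2) and in 0 of the 40 sums, and in 2 of the 90 share values (*Pfkp*, without Control pool 3 or Mutant pool 1). Without Control pool 3 the log2 difference of the sums was -0.07 for hexokinase and -0.06 for phosphofructokinase. The 86 genes called over the whole table became 8 without the variance trend, 545 with edgeR on 5 libraries and 1 to 468 with a pool left out (1 without Control pool 1 or Mutant pool 3, 12 without Mutant pool 1, 21 without Mutant pool 2, 147 without Control pool 2 and 468 without Control pool 3). With a pool left out, log2 fold changes ranged from -0.31 to -0.13 for *Aldoa*, -0.34 to -0.19 for *Ldha* and -0.26 to -0.19 for *Pkm*, all on 1 side of 0. That of *Hk1* ranged from -0.024 to 0.083 and that of *Pfkp* from -0.19 to 0.11, and both changed sign, at -0.012 for *Hk1* without Control pool 2 and -0.024 without Mutant pool 1, and at -0.13 for *Pfkp* without Mutant pool 1 and -0.19 without Control pool 3. With edgeR, which was run without Control pool 3, *Pfkp* was at -0.18, *Ldha* at -0.19 and *Pkm* at -0.20. Limma without that pool gave -0.19, -0.19 and -0.20 for these 3 genes. Why the values moved with the pools left out was not tested. The *Hk2* share difference was -2.94 points with only the 10 genes in the sum, and the *Pfkm* difference of 4.29 points was 3.13 without length and 3.03 per coding length, by the construction of these shares. Deviations from the group means correlated at -0.03, 0.17 and 0.06 between same-numbered pools over 13951 genes. Between pools of different numbers they correlated at -0.17 to 0.13. The deviations of the 3 pools of a group sum to 0, so these values cannot settle whether the numbers pair the pools. With the replicate block, 71 genes were called, no call of the 10 genes changed, and adjusted p was 0.0908 for *Ldha* and 0.0799 for *Pkm*. With 3 pools a group, differences of the size of the SEs given here could not be told from the spread.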

Other observations

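Enolase 1, the main embryonic form of an enzyme that acts just before pyruvate kinase in the pathway, was nearly absent from the table. *Eno1* was listed at 7.86, 11.4 and 9.94 normalized counts in Control pools and at 9.20, 1.96 and 6.87 in Mutant pools, while its partner *Eno2* was at 88.4, 88.8 and 102 in Control and at 109, 124 and 119 in Mutant pools. The *Eno1* transcript matched 3 other annotated genes, 2 of them pseudogenes, over 85.6% of its length at 95% identity or more, and *Gapdh*, whose pools of a group differed manifold, was matched over 88.0%. For both genes no level or balance was drawn from the counts.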
